A study of Mus musculus with 26 samples.

Results

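The immediate early response genes Fos, Fosb, Jun, Junb, Atf3, Egr1, Klf4, Nr4a1, Ier2 and Dusp1 were examined in the choroid plexus (ChP) of the fourth ventricle, the epithelial tissue that secretes cerebrospinal fluid. They were taken by symbol, as genes known to respond quickly to stimuli, and all 10 were found among the 55416 genes of the table of control and lesioned mice and also in the table of knockout mice. Control mice (Ctrl) were sham-operated adult male C57Bl6J mice, and SCNx mice had in addition lost the suprachiasmatic nuclei (SCN), the central circadian pacemaker, to an electrolytic lesion. Both groups of 12 mice had been synchronized to a light-dark cycle and were then left in constant darkness, where 1 mouse of each group was killed every 4 h from CT0, the time at which lights would have come on, to CT44. Each time point of a group is therefore 1 mouse, and every time of day was sampled by 1 mouse on each of the 2 days in darkness. The knockout mice (KO, FoxJ1-ERT2-Cre+/-; Bmal1fl/fl, adult males given tamoxifen in the diet) carried a deletion of the clock gene Bmal1 directed to cells that express Foxj1, which in this tissue are ciliated epithelial cells. They were kept under a light-dark cycle in another laboratory, and only 1 mouse was killed at ZT7 and 1 at ZT18, that is by day and by night. Recombination in KO was tested in liver. Their ChP was cut from frozen sections by laser and sequenced with another library kit. KO and Ctrl thus differ at once in genotype, age, tamoxifen, surgery, lighting, housing, dissection, RNA integrity and library chemistry.

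Immediate early genes are transcribed within minutes of a stimulus without the need for new protein, from promoters on which factors such as SRF and CREB already sit, and their mRNA decays quickly. Many code for transcription factors. Fos and Jun proteins pair to form AP-1, Egr1 and Klf4 are zinc-finger factors and Nr4a1 is an orphan nuclear receptor, while Dusp1 codes for a phosphatase that switches off MAP kinases. Such genes respond to hormones, growth factors and depolarization, and also to stress, handling and the dissection itself, so a difference between 2 mice killed at different times can come from the hour or from the mouse. The labels do not record how each mouse was handled, and handling cannot be told apart from any other difference between mice here. What the design does allow is to set the effect of time of day against the spread between mice killed at the same time of day on different days.

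Values are given as CPM, the count of a gene scaled to the size of its library after TMM normalization, unless stated otherwise. They are compared between libraries and not between genes, which differ in length. Ctrl libraries held from 38751201 to 47335258 estimated counts, SCNx libraries from 41807043 to 49527655 and the KO libraries 17425207 and 18059227. In all, 5 libraries stood apart in markers of other tissues. The summed CPM of 12 markers of neurons and cerebellum was 351 in Ctrl CT4 and 449 in SCNx CT32, against medians of 18.5 in Ctrl and 17 in SCNx, and that of 5 astrocyte markers was 716 and 910 in the same libraries against medians of 51.5 and 50.4. Hepatocyte markers (8 genes) reached a sum of 2030 CPM in the library Ctrl CT16 and of 10561 CPM in SCNx CT0, with group medians of 1.73 and 3.08, and blood markers (4 genes) summed to 6432 CPM in SCNx CT44, against an SCNx median of 525. The 10 epithelial markers lay between 113865 and 169894 in all 24 libraries of both groups. In such bulk samples, fewer cells of a type and less RNA per cell cannot be told apart.

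Members whose values the results turn on are shown first by their promoters, the 250 bases before the annotated start in RefSeq (GRCm38.p6, a build older than that of the counts). Of the 10 members 8 were searched. Ier2 had no entry, and the promoter of Egr1 was left out of the search, so the matches below cover neither gene. Capitals mark matches, on either strand, to the cAMP response element CRE (TGACGTCA), its short form TGACG, the E-box CACGTG bound by clock proteins, and the TATA box TATAAA. The AP-1 site TGANTCA and the CArG box bound by SRF were also searched for. Fos is shown because it served as the reference for differences between mice, Klf4 because it differed with time of day in Ctrl, and Nr4a1 and Dusp1 because they varied between mice and had the most matches. The Fos promoter lies at chr12:85473640-85473889 on the plus strand, that of Nr4a1 at chr15:101266596-101266845 on the plus strand, that of Klf4 at chr4:55532476-55532725 on the minus strand and that of Dusp1 at chr17:26508473-26508722 on the minus strand.
Fos: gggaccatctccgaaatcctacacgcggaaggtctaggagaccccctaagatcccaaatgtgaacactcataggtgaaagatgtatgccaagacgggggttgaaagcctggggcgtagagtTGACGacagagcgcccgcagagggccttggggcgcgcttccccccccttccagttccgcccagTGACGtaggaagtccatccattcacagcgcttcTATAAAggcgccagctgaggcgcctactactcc
Nr4a1: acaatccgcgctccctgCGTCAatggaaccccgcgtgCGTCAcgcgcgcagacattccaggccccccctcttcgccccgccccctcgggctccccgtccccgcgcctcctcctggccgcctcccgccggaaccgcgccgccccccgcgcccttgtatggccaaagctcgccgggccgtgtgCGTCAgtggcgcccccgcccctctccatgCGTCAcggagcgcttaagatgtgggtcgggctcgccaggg
Klf4: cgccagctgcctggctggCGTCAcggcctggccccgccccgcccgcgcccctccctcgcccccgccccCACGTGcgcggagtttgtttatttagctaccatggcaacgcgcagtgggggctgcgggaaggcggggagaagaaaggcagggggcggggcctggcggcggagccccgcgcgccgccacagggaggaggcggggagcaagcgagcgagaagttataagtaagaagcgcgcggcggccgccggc
Dusp1: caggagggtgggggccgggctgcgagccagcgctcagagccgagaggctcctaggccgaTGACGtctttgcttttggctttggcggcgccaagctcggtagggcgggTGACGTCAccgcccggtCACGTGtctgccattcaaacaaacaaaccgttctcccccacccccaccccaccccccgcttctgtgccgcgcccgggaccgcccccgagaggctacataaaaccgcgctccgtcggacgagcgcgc

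The short CRE was found in 7 of the 8 promoters (all but Jun), and 17.8% of the 32841 promoters of the same length in the RefSeq table held it. Fos had 2 matches, the nearer of them 66 to 62 bases before the start, and a TATA box 33 to 28 bases before it. Nr4a1 had 4 matches to the short CRE. Dusp1 was the only member of the 8 with the full CRE, 143 to 136 bases before the start, a match shared by 1.55% of all promoters; it overlaps 2 of the 3 short matches there. E-boxes lay in the Klf4 and Dusp1 promoters (6.02% of all promoters), the TATA box in Fos alone (12.4%), and neither the AP-1 site (6.75%) nor the CArG box (1.47%) was in any of the 8. A match describes the letters of this window only.

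Few reads came from Fos, Fosb and Atf3. Fos, the partner of Jun in AP-1, ranged from 0.202 CPM in Ctrl CT20 over a median of 0.489 to 0.737 in Ctrl CT40, which corresponds to 8 to 35 counts. In SCNx it ranged from 0.243 in SCNx CT0 over a median of 0.527 to 1.44 in SCNx CT36, where 65 counts were found and the next highest library reached 0.751. Its relative Fosb ranged from 0.0219 in Ctrl CT28, a single count, over a median of 0.0717 to 0.615 in Ctrl CT4, where 26 counts lay 8.58-fold above the Ctrl median. In SCNx, Fosb lay between 0.0456 and 0.371 CPM with a median of 0.169. Atf3, a factor of the ATF family known to be induced by cell stress, had 0.413 to 0.744 CPM in Ctrl (median 0.671) and 0.461 to 0.993 in SCNx (median 0.724). These 3 genes had a mean CPM below 1 in both groups and were outside the tests below, unless a fit without a minimum is named. The ranges of Ctrl and SCNx overlapped for each of the 3.

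The 2 Jun-family members were higher than the minimum in every mouse. Jun ranged in Ctrl from 7.06 CPM in Ctrl CT32 over a median of 8.79 to 11.9 in Ctrl CT16. In SCNx the range was 7.65 to 18.4 with a median of 9.43, and the highest value belonged to SCNx CT32, 1 of the libraries with brain markers, with 11.9 in the next. Junb, often an antagonist of Jun in AP-1, stayed within 2.52 to 3.93 CPM in Ctrl (median 3.28) and 2.76 to 4.17 in SCNx (median 3.50), so that its highest mouse was 1.56-fold above its lowest in Ctrl and 1.51-fold in SCNx. Ier2, a small nuclear protein of the early response, lay between 1.9 and 3.22 CPM in Ctrl (median 2.71) and between 1.85 and 4.37 in SCNx (median 2.51), with the highest value in SCNx CT0, which had the hepatocyte markers.

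Egr1, Klf4 and Nr4a1 spread more widely. Egr1 ranged in Ctrl from 1.64 CPM in Ctrl CT40 over a median of 4.05 to 9.42 in Ctrl CT4, and in SCNx from 2.43 to 6.00 with a median of 3.68. Klf4, a factor that restrains proliferation in epithelia, ranged from 2.77 in Ctrl CT24 over a median of 6.09 to 10.6 in Ctrl CT4, and in SCNx from 4.79 to 9.67 with a median of 6.20. Nr4a1 ranged from 2.68 in Ctrl CT0 over a median of 4.92 to 10.5 in Ctrl CT4, and from 3.68 to 11 with a median of 5.29 in SCNx. Dusp1 was steadier, with 8.53 to 16.9 CPM in Ctrl (median 11.7) and 9.18 to 16.1 in SCNx (median 11.4). Each of the 4 ranges of SCNx overlapped that of Ctrl, and the Ctrl maxima of Egr1, Klf4 and Nr4a1 all came from the CT4 mouse of the first day.

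**Figure D1:**
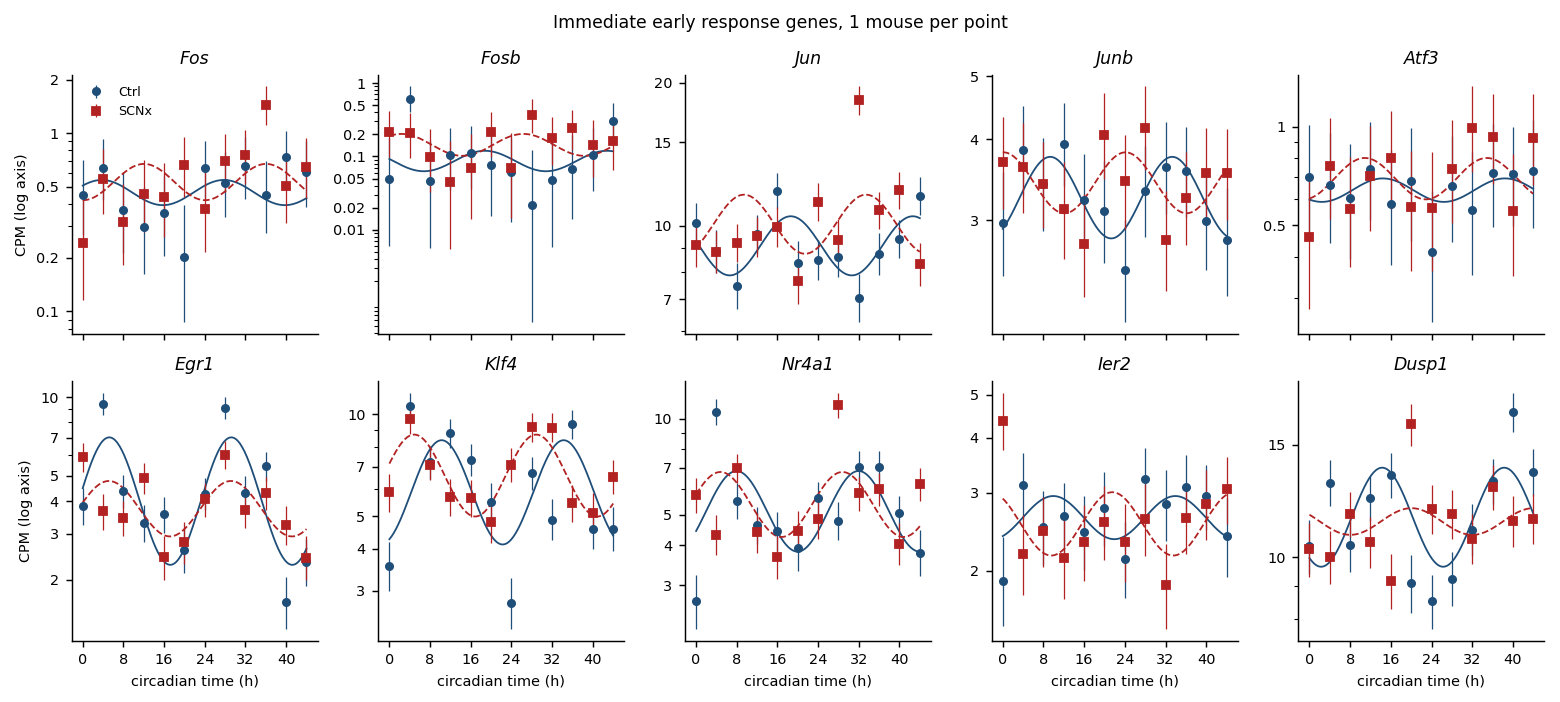
CPM of the 10 members (log axis) against circadian time in h, with 1 mouse per point, exact 95% Poisson intervals of the counts as whiskers and, as lines, each group's 24 h curve fitted to log2 CPM. Egr1 was high in both Ctrl mice killed at CT4 and CT28, at 9.42 and 9.08 CPM, whereas Nr4a1 was high in Ctrl CT4 alone, at 10.5.

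The first question was whether the members followed the time of day in mice with an intact SCN. Egr1 did, with the highest values in the early subjective day. The mean of the Ctrl mice killed at CT4 and CT28 was 9.25 CPM and that of the mice at CT20 and CT44 was 2.47, and both early mice stood above the other 10, of which the highest was at 5.45. A 24 h curve fitted by edgeR had a log2 amplitude of 0.82 ± 0.19 (SE from a least-squares fit to log2 CPM), a peak at 5.4 h and a fold of 3.1 between peak and trough, with an adjusted p of 0.00910. When the 6 times of day were compared without assuming a curve, Egr1 was called again (largest difference 1.9 on the log2 scale, adjusted p = 0.0165). Klf4 was called by this comparison only (1.52, adjusted p = 0.0262), since its 24 h curve, with an amplitude of 0.51 ± 0.20 and a peak at 9.8 h, had an adjusted p of 0.0840.

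In Klf4 both lowest mice came from the same time of day. The mice at CT0 and CT24 had 3.55 and 2.77 CPM, the lowest values of Ctrl, and those at CT12 and CT36 had 8.78 and 9.33. The mice at CT4 and CT28 differed more, with 10.6 and 6.69. Its highest times are thus 8 h apart with a lower time between them, at 7.21 and 4.88 CPM at CT8 and CT32.

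By the 24 h curve, 1 of the 7 tested members was called in Ctrl, against 10.7% of the 13697 tested genes, and by the comparison of times 2 of 7, against 4.26%. In the first test, 3398 of the 13697 genes had an unadjusted p under 0.05. Among the members there were 5, Egr1, Klf4, Junb, Dusp1 and Nr4a1. Their peaks fell at 5.4 h for Egr1, 7.4 h for Nr4a1, 9.3 h for Junb, 9.8 h for Klf4 and 14.4 h for Dusp1. The median amplitude of the 7 members was 0.25 on the log2 scale and that of all tested genes 0.11. In SCNx, where 0 members were called, these medians were 0.25 and 0.09, so the contrast was not particular to Ctrl. The call of Klf4 by the curve depended on the fit, with an adjusted p of 0.0388 in DESeq2 and 0.00935 without Ctrl CT4 and SCNx CT32, and Dusp1 was called without these 2 libraries (amplitude 0.35, adjusted p = 0.0321). Klf4 was also called when Ctrl CT4 alone or Ctrl CT32 alone was left out (amplitudes 0.55 and 0.63), and Dusp1 without Ctrl CT4 alone (0.35). Egr1 kept its call in each of the 24 fits that left out 1 library (amplitude 0.71 to 0.95) but lost that for the times of day without Ctrl CT4 and SCNx CT32 (adjusted p = 0.0663), when its largest difference was 1.86.

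**Figure D2:**
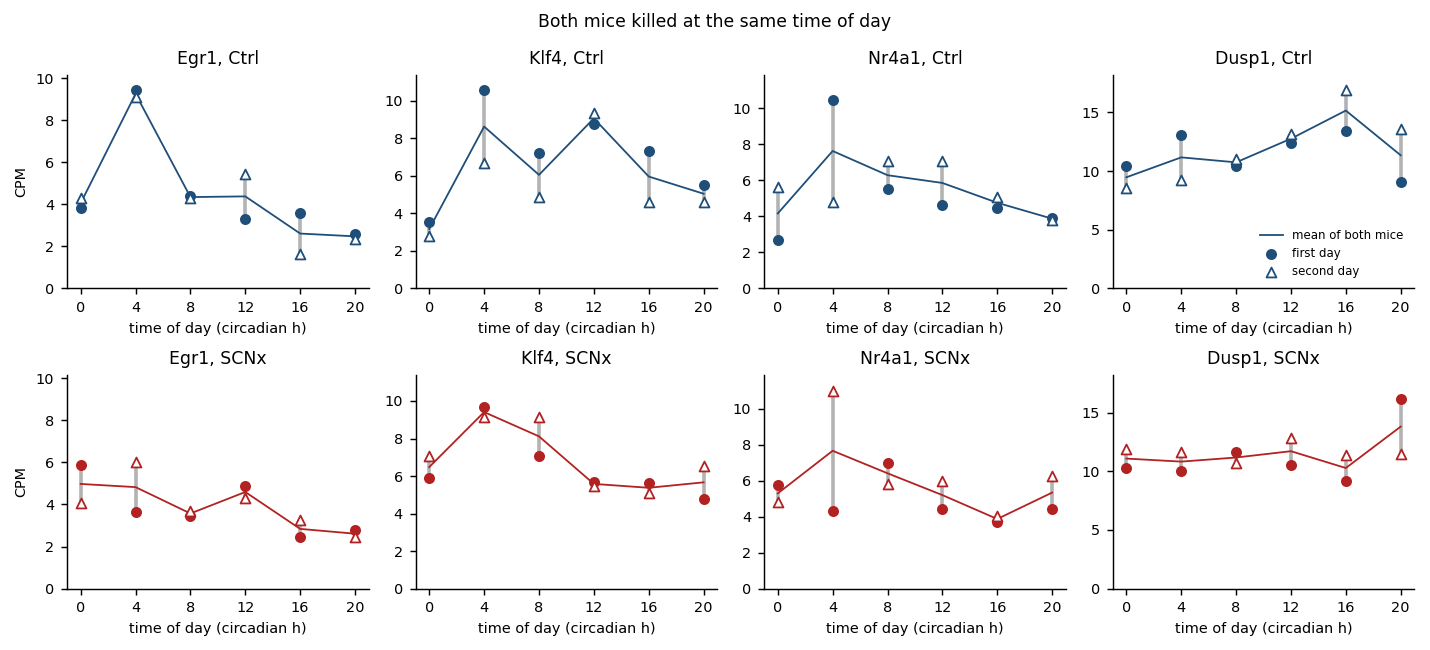
CPM of Egr1, Klf4, Nr4a1 and Dusp1 in both mice killed at each time of day (circadian h), the mouse of the first day as a filled circle and that of the second day as an open triangle joined by a grey bar, with Ctrl above and SCNx below and lines through the means. The largest difference within a Ctrl pair was 2.17-fold for Egr1, at CT16 and CT40, and 2.19-fold for Nr4a1, at CT4 and CT28, while the means of the times of day differed 3.75-fold for Egr1 and 1.97-fold for Nr4a1.

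In SCNx, 0 of the 7 members were called for a 24 h rhythm by edgeR, 1 had an unadjusted p under 0.05 and DESeq2 and limma-trend called 0 as well. Of all 13697 genes, 0% were called by edgeR, with 2032 at an unadjusted p under 0.05, and DESeq2 called 432. The member was Klf4 (p = 0.0347, adjusted p = 0.296). The 3 highest SCNx libraries were SCNx CT4, CT28 and CT32 with 9.67, 9.15 and 9.14 CPM, and the curve with a peak at 4.8 h and an amplitude of 0.40 ± 0.08 took 73.8% of the variance of log2 CPM. The SE and this share come from a fit to SCNx alone, whereas the p-value rests on a spread estimated from both groups. Egr1 in SCNx had an amplitude of 0.36 ± 0.16 with a peak at 5.1 h, close to that of Ctrl, and an adjusted p of 0.465. By the comparison of times of day edgeR, DESeq2 and limma-trend called 0 of 7 members in SCNx, and Egr1 and Klf4 had an unadjusted p under 0.05. Of all genes 0% were called there by edgeR, with 1785 at an unadjusted p under 0.05, and 1107 by DESeq2.

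Whether the lesion changed the rhythm of a member was tested by the difference of the curves between the groups. None of the 7 was called by edgeR, DESeq2 or limma-trend, against 2.12% of all genes in edgeR. With an unadjusted p under 0.05 there were 2067 of the 13697 genes and, among the members, 4, namely Junb, Jun, Klf4 and Ier2. Of these 4, Junb had the smallest (p = 0.00792, adjusted p = 0.147), with a curve peaking at 9.3 h in Ctrl and at 0.1 h in SCNx. For Klf4 the difference was 0.56 on the log2 scale (adjusted p = 0.320), and it was called without Ctrl CT4 and SCNx CT32 (0.75, adjusted p = 0.0352). For Egr1, called in Ctrl and not in SCNx, the difference was 0.45 (adjusted p = 0.540), so a loss of its rhythm after the lesion was not shown.

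A difference in mean level between SCNx and Ctrl was not shown for any tested member. Of 7 members 0 were called by edgeR, 0 had an unadjusted p under 0.05, and DESeq2 and limma-trend called 0, while 0% of all genes were called by edgeR (1283 at an unadjusted p under 0.05) and 14 genes by DESeq2. SCNx minus Ctrl was largest for Egr1, at -0.21 ± 0.24 on the log2 scale (SE of the fit), and for Jun, at 0.17 ± 0.11. Single libraries moved both, since the value for Egr1 ran from -0.29 without Ctrl CT40 to -0.06 without Ctrl CT4, and that for Jun was 0.06 without SCNx CT32. It was 0.07 ± 0.08 for Junb, -0.04 ± 0.10 for Dusp1 and 0.10 ± 0.19 for Klf4. In the fit without a minimum, Fos differed by 0.24 ± 0.25 and Fosb by 0.32 ± 0.45.

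The second day in darkness was also set against the first. Of the 7 members 0 were called in Ctrl and 0 in SCNx by edgeR, as by DESeq2 and limma-trend, and 0% of all genes were called in either group, with 586 at an unadjusted p under 0.05 in Ctrl and 2552 in SCNx, where DESeq2 called 1 and 373. At an unadjusted p under 0.05 there were 0 members in Ctrl and 1 in SCNx, Jun, which was higher on the second day by 0.35 ± 0.13 (adjusted p = 0.188) and by 0.20 without Ctrl CT4 and SCNx CT32. Fos, in the fit without a minimum, was higher on the second day by 0.69 ± 0.32 in Ctrl (p = 0.0431, adjusted p = 0.856) and by 0.64 ± 0.32 in SCNx (p = 0.0548, adjusted p = 0.558). Of the 6 times of day, the second mouse had the higher Fos CPM at 5 in Ctrl and at 5 in SCNx.

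The spread between mice was then measured from pairs killed at the same time of day. As the mice of a pair came from different days in darkness, a pair difference also holds any difference between the days. Mice of a group killed at the same time of day differed, in the median over the 6 times in Ctrl, 1.11-fold in Egr1, 1.11-fold in Junb, 1.14-fold in Ier2, 1.15-fold in Jun, 1.24-fold in Dusp1, 1.38-fold in Klf4 and 1.40-fold in Nr4a1. For Egr1 the means of the times of day differed 3.75-fold and for Klf4 2.87-fold, both beyond the largest pair difference of the same gene (2.17-fold and 1.59-fold). The same held for Ier2 (1.58-fold and 1.20-fold), Junb (1.37-fold and 1.18-fold), Jun (1.46-fold and 1.39-fold) and Dusp1 (1.60-fold and 1.49-fold), none of which was called for time of day. For Nr4a1 the means differed 1.97-fold, less than the 2.19-fold between the mice at CT4 and CT28. Among the tested members in SCNx, the largest pair differences were 2.55-fold in Nr4a1 (11 CPM in SCNx CT28 and 4.32 in SCNx CT4), 1.99-fold in Jun at CT8 and CT32, 1.88-fold in Ier2 at CT0 and CT24 and 1.64-fold in Egr1 at CT4 and CT28. Of the members under the minimum, Fosb differed up to 5.34-fold, Fos up to 3.16-fold and Atf3 up to 1.78-fold between such mice in SCNx. The means of the times of day in SCNx differed 1.91-fold for Egr1 and 1.75-fold for Klf4. Both went beyond the largest pair difference of the same gene in SCNx (1.64-fold and 1.36-fold), though neither gene was called for time of day there. For the other tested members in SCNx the means did not go beyond it. Fosb showed the largest of all pair differences, 28.0-fold between Ctrl CT4 and Ctrl CT28, where the lower mouse had 1 count.

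The SD of log2 CPM around each group's 24 h curve was 0.49 for Klf4, 0.46 for Egr1, 0.44 for Nr4a1, 0.24 for Dusp1, 0.22 for Ier2, 0.18 for Jun and 0.13 for Junb in Ctrl. The median of the 7 was 0.24, against 0.12 over all tested genes, and each of the 7 was above that median. This SD includes counting error, which is larger for genes with few counts and was not removed from the comparison. In Ctrl, Junb had 111 to 185 counts and Ier2 76 to 147. In SCNx the median of the members was 0.28 against 0.16, with 6 of 7 above it, and Junb was below. Among all tested genes, 74.6% had a larger SD in SCNx than in Ctrl, and among the members 3 of 7 had (Junb, Jun and Ier2). For Klf4 the SD was 0.19 in SCNx and thus smaller than in Ctrl.

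Counting error limits what can be said of the lowest members. The variance of the counts over that expected from counting alone was 0.656 for Atf3 in Ctrl and 1.89 in SCNx, so in Ctrl its mice did not vary beyond counting error. The ratio was 2.41 and 7.27 for Fos, 9.02 and 2.19 for Fosb and 2.50 and 2.34 for Junb in Ctrl and SCNx. It was 57.6 and 15.8 for Egr1, 40.5 and 18.4 for Klf4 and 31.9 and 29.9 for Nr4a1. For Dusp1 it was 22.6 and 11.7, for Jun 9.77 and 33.7 and for Ier2 2.72 and 6.63. This ratio grows with the number of counts and includes differences with time of day, so it does not rank the members by spread between mice.

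Some mice were high in several members at once. Ctrl CT4 held the highest CPM of its group for Fosb, Egr1, Nr4a1 and Klf4, and SCNx CT28 that of its group for Fosb, Junb, Egr1 and Nr4a1. When the distance of each mouse from its group's curve was divided by the SD of that gene's distances and averaged over the 7 members, Ctrl CT4 stood highest at 1.62, with 7 of 7 members above the curve, and SCNx CT28 was next at 0.67 with 6 of 7. Ctrl CT8 was lowest at -0.77, with 0 of 7 above, followed by Ctrl CT24 at -0.75. Ctrl CT4 is 1 of the libraries with high neuron and astrocyte markers, and SCNx CT32, with even more of them, was at -0.05 with 2 of 7 above. Ctrl CT4 also had the highest mitochondrial share of the 24 libraries (8.77%, Ctrl median 5.55%), and within Ctrl the highest macrophage sum (54.9 CPM) and the lowest epithelial sum (140919 CPM). SCNx CT28 had the lowest neuron and astrocyte sums of SCNx, at 9.13 and 31.6 CPM, and the highest sum of 5 endothelial markers, at 236 CPM against a median of 170. The part of these measures in the members' values was not tested.

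**Figure D3:**
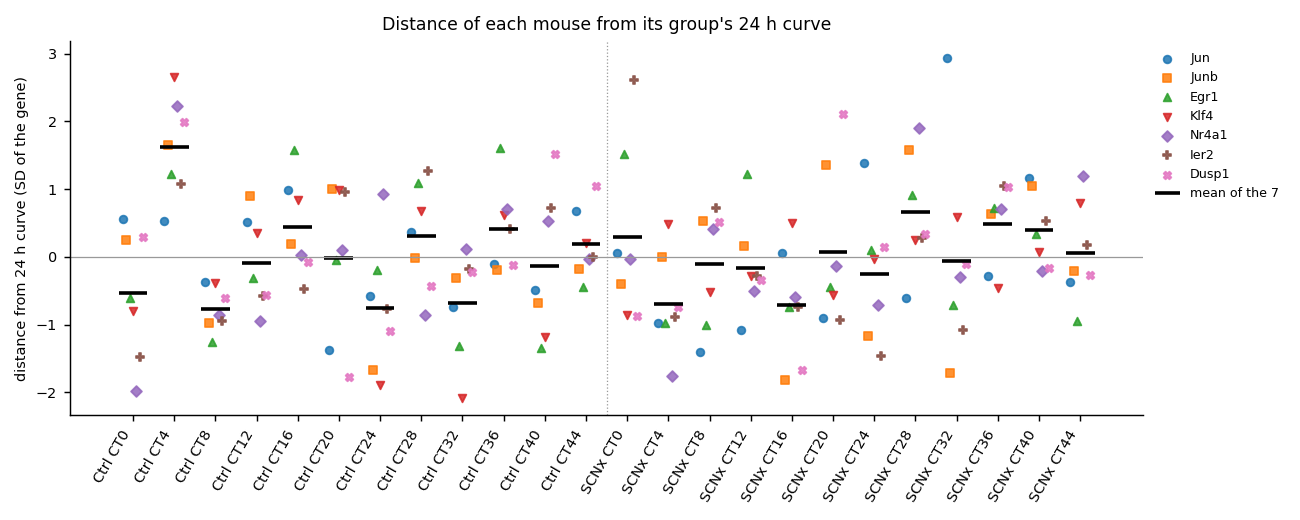
Distance of each of the 24 mice from its group's 24 h curve in log2 CPM, divided by the SD of that gene's distances over the 24 libraries, for the 7 tested members (coloured symbols) and their mean (black bars). All 7 members lay above the curve in Ctrl CT4 (mean 1.62) and all 7 below it in Ctrl CT8 (mean -0.77), whereas single genes stood out in SCNx CT0 (Ier2), SCNx CT20 (Dusp1) and SCNx CT32 (Jun).

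Next, it was asked whether the members varied together between mice at a given group and time of day. With the log2 CPM of Fos added to the curves as a covariate, edgeR called 0 of the 7 members and 0% of all genes (747 at an unadjusted p under 0.05). DESeq2 and limma-trend also called 0 members, and DESeq2 called 4 genes. Dusp1 alone had an unadjusted p under 0.05, with a slope of 0.23 ± 0.07 per doubling of Fos (p = 0.00629, adjusted p = 0.645). The slopes were 0.26 ± 0.14 for Nr4a1, -0.09 ± 0.17 for Egr1 and -0.00 ± 0.07 for Junb. Fosb had a slope of 0.86 ± 0.41 in the fit without a minimum (p = 0.0453, adjusted p = 0.781). Fos itself rests on 8 to 65 counts per library, which limits the precision of this covariate.

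With Egr1, which has more counts, as the covariate, 0 of the 6 other tested members and 0% of 13696 genes were called by edgeR (649 at an unadjusted p under 0.05). Slopes were positive for all 6, from 0.01 ± 0.13 for Dusp1 to 0.34 ± 0.19 for Klf4, and Ier2 had the smallest unadjusted p (slope 0.28 ± 0.13, p = 0.0483, adjusted p = 1.0). Without Ctrl CT4 and SCNx CT32, a choice made after the data were seen, the slope of Dusp1 was -0.09 and that of Klf4 0.21. As a description of likeness, the Spearman correlations of the distances between pairs of the 7 members over 24 libraries had a median of 0.19 and ran from -0.26 for Jun and Nr4a1 to 0.52 for Ier2 and Nr4a1, with 17 of 21 above 0. Without Ctrl CT4 and SCNx CT32 the median was 0.11 over 22 libraries.

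Among the 13690 other tested genes, those whose distances from the curve were most like the mean of the members over the 24 libraries were Col23a1 (Spearman correlation 0.75), Foxd1 (0.72), C1qa (0.68), Foxc1 (0.66), Tefm, Ccdc69 and Thbd (each 0.64), Foxp2 (0.64), Olfr1372-ps1 and Prg4 (each 0.63). For 8 of these 10 the highest distance was in Ctrl CT4. Without Ctrl CT4 and SCNx CT32, 3 of the 10 were still among the 10 most alike, Col23a1, Foxd1 and Ccdc69, while Prg4 was at 0.31. The list of 32 other tested immediate early genes had a median correlation of 0.23 with the members' mean, against -0.00 over all genes and -0.21 over the 10 epithelial markers. Other lists were positive as well, so this likeness is not particular to immediate early genes. The median was 0.19 over 10 heat shock genes, 0.15 over 10 glucocorticoid receptor targets and 0.14 over 10 clock genes. Over the 8 hepatocyte markers the median was 0.16 and over the 5 endothelial markers 0.15. It was 0.37 over the 5 fibroblast markers, 0.32 over the 4 blood and over the 5 macrophage markers, 0.28 over the 6 tested neuron markers and 0.26 over the 5 astrocyte and over the 3 tested oligodendrocyte markers, and the part of such cells was not tested.

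Other immediate early genes also followed the time of day in Ctrl. Of a list of 42, 32 passed the minimum, with a median amplitude of 0.22 in Ctrl, against 0.11 over all genes. In the test of the 24 h rhythm in Ctrl, 15 had an unadjusted p under 0.05, against 3398 of the 13697 genes. After adjustment 9 were called, against 10.7% of all genes. In order of p these were Ier5 (amplitude 0.48, peak at 23 h), Crem (0.51, 20.6 h), which codes for activators and repressors at the CRE, Zfp36l2 (0.21, 9.1 h), Klf10 (0.56, 6.9 h), Ier3 (0.51, 11.7 h), Klf2 (0.45, 10.9 h), Btg2 (0.25, 18.4 h), Zfp36l1 (0.22, 18.6 h) and Maff (0.61, 9.6 h). Of these peaks 5 lay between 6.9 and 11.7 h and 4 between 18.4 and 23 h. In SCNx 0 of 32 were called, with 3 at an unadjusted p under 0.05, against 2032 of the 13697 genes. The difference of the rhythm was called for 3 (Ier5, Crem and Ier3), against 2.12% of all genes. For the covariation with Fos, 0 of 32 were called, with 1 at an unadjusted p under 0.05, Nr4a2, named after its value was seen.

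Genes that act upstream of the members, such as transcription factors at their promoters and MAP kinases, were looked at in the same way. Of 18 tested, 0 were called for a rhythm in Ctrl, with Srf alone at an unadjusted p under 0.05 (amplitude 0.11), and 0 for covariation with Fos, where Elk4 (slope -0.09 ± 0.04) and Mapk14 (-0.06 ± 0.02) had an unadjusted p under 0.05. Of 10 glucocorticoid receptor targets, 6 were called for a rhythm in Ctrl, 4 for a difference of the rhythm and 0 for covariation with Fos, with 0 at an unadjusted p under 0.05 in the last test. Of 10 heat shock genes, 6 were called in Ctrl, 1 for the difference and 0 for covariation with Fos. All 10 clock genes were called in Ctrl and for the difference, against 10.7% and 2.12% of all genes. This list was chosen with earlier results of these data known. It holds neither Cry1 nor Rora, which the authors reported below their rhythmicity threshold, so these counts are no separate result.

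KO mice were described without a test, since there is 1 mouse for each time. Arntl, which codes for BMAL1, had 10.6 CPM of all counts at ZT7 and 9.36 at ZT18, against 2.11 to 40.3 in Ctrl on the same scale. These gene totals do not show the deleted part of the gene, nor which cells carried the deletion. In both KO libraries, mitochondrial genes took 25.1% and 21.8% of counts, against 3.92% to 8.77% in Ctrl, the neuron markers summed to 291 and 423 CPM and the astrocyte markers to 789 and 914, and the epithelial markers to 86312 and 82088, below all Ctrl libraries. The part of these differences in the members' values was not tested.

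Of the 9 members whose mean CPM in KO reached 1 (all but Fosb), 8 had a higher CPM in the mouse killed by night than in that killed by day, as had 64% of the 15050 genes above this minimum. Of the 9, 4 were past 2-fold higher at ZT18, against 3.69% of these genes, and 0 were past 2-fold lower, against 1.41%. Fos had 1.15 CPM at ZT7 (20 counts) and 4.98 at ZT18 (90 counts), a ratio of 4.34 (exact 95% interval 2.65 to 7.44, for counting error only). Egr1 had 4.25 and 14.6 CPM (ratio 3.44, interval 2.65 to 4.52), Nr4a1 4.36 and 11.2 (2.58, 1.97 to 3.40) and Junb 1.84 and 4.15 (2.26, 1.48 to 3.54). The ratio was 1.88 for Ier2, 1.62 for Klf4, 1.53 for Dusp1, 1.39 for Jun, 0.965 for Atf3 and 0.844 for Fosb, which had 8 and 7 counts. The same 4 were past 2-fold when mitochondrial counts were left out. With 1 mouse each, night cannot be told apart from the mouse.

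Most genes of the KO libraries lay outside the range of the Ctrl libraries. At ZT18, 8 of the 9 members were above it, against 32.7% of the 15050 genes, and 0 below, against 39.5%. At ZT7, 3 of the 9 were above (Fos, Jun and Atf3), against 28.3%, and 1 below (Junb), against 44.2%. Fos was above at both times, with 1.15 and 4.98 CPM against 0.206 to 0.763 in Ctrl. Jun was as well, with 19.3 and 26.9 CPM against 6.80 to 11.4 on the same scale of all counts, and so was Atf3, with 1.61 and 1.55 against 0.423 to 0.772. For Egr1, the Ctrl mice killed nearest to these hours had 4.37 CPM at CT8 and 4.30 at CT32 by day, and 3.56, 2.60, 1.64 and 2.34 CPM at CT16, CT20, CT40 and CT44 by night, so night values were below day values in Ctrl and the KO mouse at ZT18 was above that at ZT7. This difference was not tested. Of the other immediate early genes above the same minimum, 8 of 35 were past 2-fold higher at ZT18 and 0 lower, among them Nr4a2, Nr4a3, Arc and Gadd45b, named after their values were seen. Of the glucocorticoid receptor targets and the clock genes, 0 of 10 each were past 2-fold in either direction. Of 10 heat shock genes 1 was higher (Hspa1b) and 0 lower. Over all genes the shares were 3.69% higher and 1.41% lower, so 0 of 10 is not far from them.

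**Figure D4:**
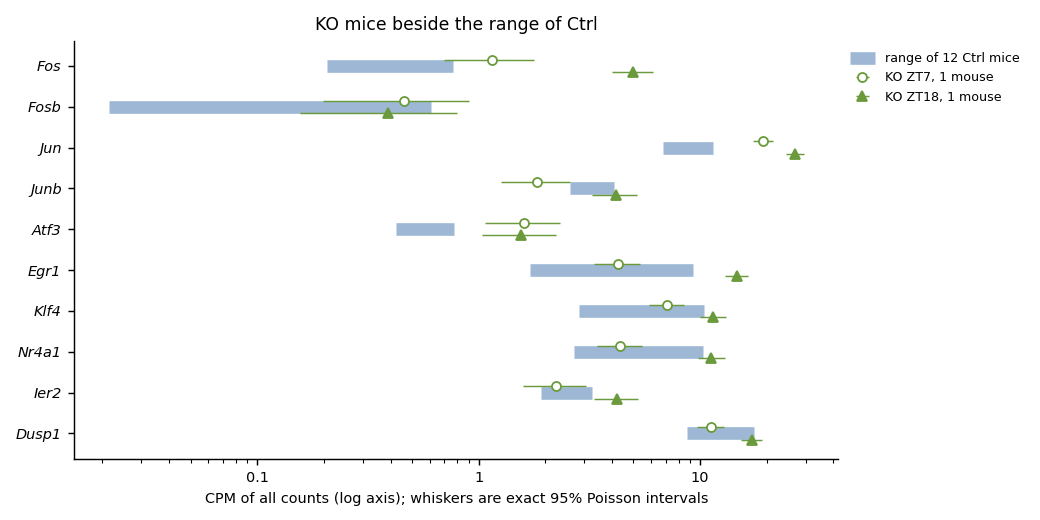
CPM of all counts (log axis, not TMM-scaled) of the 10 members in the KO mouse at ZT7 (open circles) and the KO mouse at ZT18 (triangles), with exact 95% Poisson intervals, beside the range of the 12 Ctrl mice (blue bars). Fos, Egr1, Nr4a1 and Junb were past 2-fold higher at ZT18, and Fos, Jun and Atf3 lay above the Ctrl range at both times.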

How the data were processed

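RNA-seq of ChP was available for 12 Ctrl, 12 SCNx and 2 KO mice. From reads aligned to GRCm39 by STAR within nf-core/rnaseq, the authors quantified genes with Salmon and deposited estimated counts per gene, not normalized. These were rounded. Tests covered the 13697 genes whose CPM averaged 1 or more in both groups. Fos, Fosb and Atf3 fell below this. Library sizes were scaled by TMM. P-values are those of the quasi-likelihood F test of edgeR (version 4.0.16, R 4.3.3), adjusted over all tested genes after Benjamini-Hochberg at a threshold of 0.05. The models held, for each group, a mean with a 24 h cosine and sine, 6 times of day, a day term, or log2 CPM of Fos as a covariate. Levels were compared with times pooled. As only 1 mouse stands for a time, mice on the 2 days served as replicates of a time of day. For distances from the curves, a prior count of 1 was added before taking log2 CPM. Ctrl and SCNx mice had cages of their own. The labels do not say which shared an operator or a day of dissection, and p-values measure the spread between single mice. KO values are CPM of all counts with exact Poisson intervals, which cover counting error only. Python 3.11.15 with scipy 1.17.1 was used for these.

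The members and lists were chosen with earlier results of these data known. Besides the 10 members, other immediate early genes called in Ctrl were named, and up to 4 genes of each other list by smallest p in the Ctrl rhythm or the covariation with Fos. The 10 genes most like the members' mean were also named. The fits were first tested on simulated counts with known changes. Alternatives were DESeq2 1.42.0, its size factors, limma-trend (limma 3.58.1), other minimum levels, fits of 1 group, circadian time as a block and fits without single libraries or those rich in brain or liver transcripts. The reference held another build, so gene coordinates of GRCm39 are not given here.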

Additional observations from a re-analysis of the deposited data

Results flagged for a closer look

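Among the members, none was called for a difference of its rhythm between Ctrl and SCNx. Among Arntl and the other immediate early genes named because their rhythm was called in Ctrl, 4 were called, in the test of the difference itself with edgeR. The difference of the fitted curves, as a log2 amplitude, was 2.16 for Arntl (adjusted p = 0.000384), 0.51 for Ier5 (adjusted p = 0.000498), 0.44 for Crem (adjusted p = 0.0168) and 0.65 for Ier3 (adjusted p = 0.0370). In each case the amplitude was larger in Ctrl than in SCNx, at 2.23 and 0.48 for Arntl, 0.48 and 0.17 for Ier5, 0.51 and 0.14 for Crem, and 0.51 and 0.29 for Ier3. The choice by rhythm in Ctrl favoured large Ctrl amplitudes, so this direction is no separate result for Ier5, Crem and Ier3.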

How the results depend on the processing

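Members called for a 24 h rhythm in Ctrl numbered 1 and became 2 in DESeq2 (with Klf4), 0 at a mean CPM minimum of 5 (4 members tested, Egr1 not among them) and 3 without Ctrl CT4 and SCNx CT32 (with Klf4 and Dusp1). Leaving out 1 library at a time gave 1 to 3, with 3 without Ctrl CT4 and 2 without Ctrl CT32. The difference of the rhythm was called for 1 member, Klf4, without Ctrl CT4 and SCNx CT32, and time of day in Ctrl for 1 in place of 2, Klf4, there and at the higher minimum. The other counts of members did not change in the alternatives run. The causes were not tested, beyond fewer members at the higher minimum. Over all genes, DESeq2 called 2053 for the rhythm in Ctrl, 1546 for time of day in Ctrl and 589 for the difference of the rhythm, where edgeR called 1459, 583 and 291, and without a minimum 3119 were called for time of day in Ctrl, 654 for the difference, 1384 for the rhythm in SCNx and 3567 for time of day in SCNx. Without Ctrl CT4 and SCNx CT32, 2223 were called for the rhythm in Ctrl and 504 for the difference, and without the curve 118 for covariation with Fos.

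Effects near 0 that no test called changed sign. SCNx minus Ctrl ran from -0.122 to 0.00373 for Ier2 when 1 library was left out (0.0266 without Ctrl CT4 and SCNx CT32), from -0.0782 to 0.178 for Nr4a1 and from -0.0898 to 0.0200 for Dusp1. Slopes on Fos ran from -0.0248 to 0.0282 for Junb, -0.0197 to 0.0899 for Jun, -0.197 to 0.0150 for Egr1, -0.126 to 0.0545 for Ier2 and -0.120 to 0.00388 for Klf4. For Junb the slope was 0.00107 with DESeq2's size factors, 0.00315 in DESeq2 and 0.00148 without Ctrl CT4 and SCNx CT32, where that of Jun was -0.00691. Without Ctrl CT16 and SCNx CT0 it was 0.0286 for Egr1 and 0.0517 for Ier2, and without the 24 h curve 0.0888 for Egr1. With Egr1 as the covariate, slopes were 0.113 for Junb, 0.280 for Ier2 and 0.341 for Klf4, and without Ctrl CT4 and SCNx CT32, an addition made after the data were seen, 0.0559, 0.240 and 0.207, with -0.0860 for Dusp1. The median SD of the members stayed between 0.217 and 0.256 in Ctrl and between 0.210 and 0.295 in SCNx. The labels carry no replicate numbers. With circadian time as a block, which pairs the mice of both groups killed at the same time, 0 members were called for a level difference. Fos and Fosb are limited by their low counts.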
